A study of Mus musculus with 2 samples.

Results

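The voltage-gated calcium channel pore genes encode the alpha1 subunits that form the calcium-selective pore of the Cav1, Cav2 and Cav3 channels. The 10 members were chosen by their GENCODE M21 symbols (Cacna1a to Cacna1i and Cacna1s), out of 21938 protein-coding genes. They were split into 8 subtypes known from brain (Cacna1a, Cacna1b, Cacna1e, Cacna1c, Cacna1d, Cacna1g, Cacna1h and Cacna1i) and 2 known chiefly from skeletal muscle (Cacna1s) and retina (Cacna1f). Accessible DNA was mapped by DNase-seq, in which DNase I cuts open chromatin and the cut ends are sequenced, in frontal cortex of female B6CASTF1/J mice at 10 days of age. These mice are F1 animals of a B6 by CAST cross, and the labels name no treatment or transgene but add "3x" without explaining it. The 2 libraries are named as biological replicates 1 and 2 of 1 group but share 1 donor identifier, so it cannot be told whether they came from separate animals. No condition was compared and no test was made, and the spread is that between these 2 libraries.

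Calcium entering a neuron through these pores couples the electrical signal to transmitter release, gene expression and firing pattern. Cav2 channels sit mainly at presynaptic terminals and trigger release, the Cav1 channels of neurons lie mainly on cell bodies and dendrites and signal to the nucleus, and Cav3 channels open near rest and shape rebound and burst firing. Cav1.1 is the voltage sensor of skeletal muscle contraction, and Cav1.4 supports sustained glutamate release from photoreceptors.

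A start site was called open when a deposited peak overlapped the 500 bp on either side of it, and the signal of a gene is that of the strongest such peak at any of its annotated starts. Peak signals are those the authors deposited, and since their scaling is not stated the depth is unknown. All 8 brain subtypes were open in both replicates, and both Cacna1s and Cacna1f were closed in both. The background over all protein-coding genes was 66.1% open in replicate 1, 63.3% in replicate 2 and 62.8% in both. The open state of the 8 is therefore the more common state of a gene, and the count alone does not set them apart. In bulk tissue, a gene open in fewer cells and a gene less accessible in every cell cannot be told apart.

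**Figure D1:**
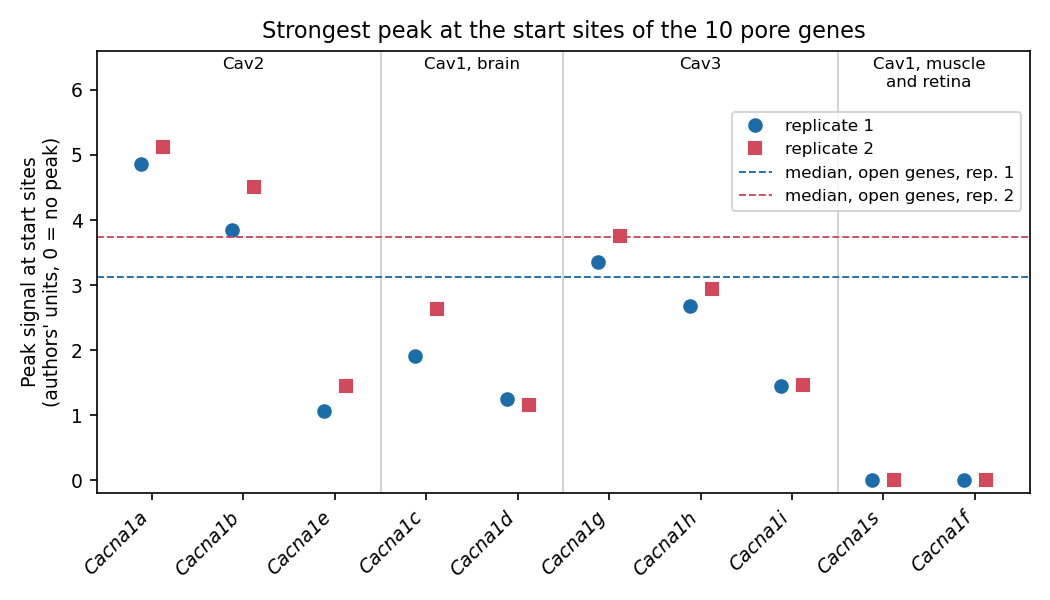
Signal of the strongest peak (authors' units, 0 where no peak was found) at the annotated start sites of each pore gene, as 1 point per replicate, with dashed lines at the median of all open protein-coding genes (3.13 in replicate 1 and 3.73 in replicate 2). The 8 brain subtypes lie between 1.07 and 5.12, and Cacna1s and Cacna1f lie at 0 in both replicates.

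The sequences upstream of the starts differed strongly in CG pairs in Cacna1c and Cacna1d, but not in Cacna1e. Cacna1c (chr6:118587240-119196418, minus strand, GRCm38) and Cacna1d (chr14:30039939-30491455, minus strand) each have an upstream coding start that was closed and a downstream coding start that was open, and so has Cacna1e. Shown are the 120 bases before each start, 5′ to 3′ on the strand of the gene in GRCm38.p6, with every CG pair in capitals and no annotated exon in them. The animals also carried a CAST allele, whose sequence was not used here.
Cacna1c upstream start, closed, chr6:119196419-119196538: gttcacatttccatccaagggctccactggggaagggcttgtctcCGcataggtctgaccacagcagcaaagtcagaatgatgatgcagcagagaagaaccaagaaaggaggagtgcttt
Cacna1c downstream start, open, chr6:119108574-119108693: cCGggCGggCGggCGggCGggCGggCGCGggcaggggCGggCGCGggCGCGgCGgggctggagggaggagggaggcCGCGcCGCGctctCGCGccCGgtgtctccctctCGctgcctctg
Cacna1d upstream start, closed, chr14:30491456-30491575: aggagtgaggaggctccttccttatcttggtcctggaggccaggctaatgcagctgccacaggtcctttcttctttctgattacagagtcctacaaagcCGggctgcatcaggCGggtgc
Cacna1d downstream start, open, chr14:30353487-30353606: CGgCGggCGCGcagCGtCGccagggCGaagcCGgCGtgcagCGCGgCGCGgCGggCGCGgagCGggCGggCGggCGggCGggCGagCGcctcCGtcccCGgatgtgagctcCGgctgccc
Cacna1e upstream start, closed, chr1:154864068-154864187: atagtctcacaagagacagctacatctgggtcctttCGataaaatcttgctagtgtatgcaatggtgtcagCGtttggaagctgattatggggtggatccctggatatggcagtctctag
Cacna1e downstream start, open, chr1:154726357-154726476: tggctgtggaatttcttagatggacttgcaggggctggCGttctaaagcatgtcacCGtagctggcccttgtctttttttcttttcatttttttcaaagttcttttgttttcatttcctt
Cacna1s start, closed, chr1:136052630-136052749: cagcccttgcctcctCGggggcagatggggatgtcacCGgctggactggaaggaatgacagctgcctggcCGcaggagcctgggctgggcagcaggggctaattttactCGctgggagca
Cacna1f start, closed, chrX:7606963-7607082: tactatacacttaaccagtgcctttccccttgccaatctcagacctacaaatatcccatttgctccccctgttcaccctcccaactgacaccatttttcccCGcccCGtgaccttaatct
Open and closed name the start, not the printed stretch. The stretch before the open Cacna1c start lay inside a peak in both replicates, and that of Cacna1d in neither. That of Cacna1e only touched the edge of a replicate 1 peak. The stretches before the open Cacna1c and Cacna1d starts held 22 and 26 CG pairs, and those before the closed starts of the same genes held 1 and 2. Those before the open and the closed start of Cacna1e held 2 each, and those before the closed starts of Cacna1s and Cacna1f held 4 and 2. The number of CG pairs just before a start therefore did not by itself tell open from closed starts in these genes.

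Starts of a gene within 500 bp of their neighbour were joined into start groups, and groups with at least 1 protein-coding transcript were compared by their CpG ratio, the observed number of CG pairs over that expected from the C and G content of the 1001 bp around the start. The 8 brain subtypes had 21 such groups, of which 9 were open in both replicates. Among the 34170 coding start groups of all genes 45.6% were open in both. Each brain subtype had exactly 1 group with a ratio of 0.6 or more, and all 8 of these groups were open, against 93.1% of such groups among all genes. Of the 13 groups with a lower ratio 1 was open, against 20.5%. The 4 coding start groups of Cacna1s and Cacna1f had ratios from 0.143 to 0.286 and none was open. The 8 open CpG-rich groups thus followed what was common for CpG-rich starts.

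**Figure D2:**
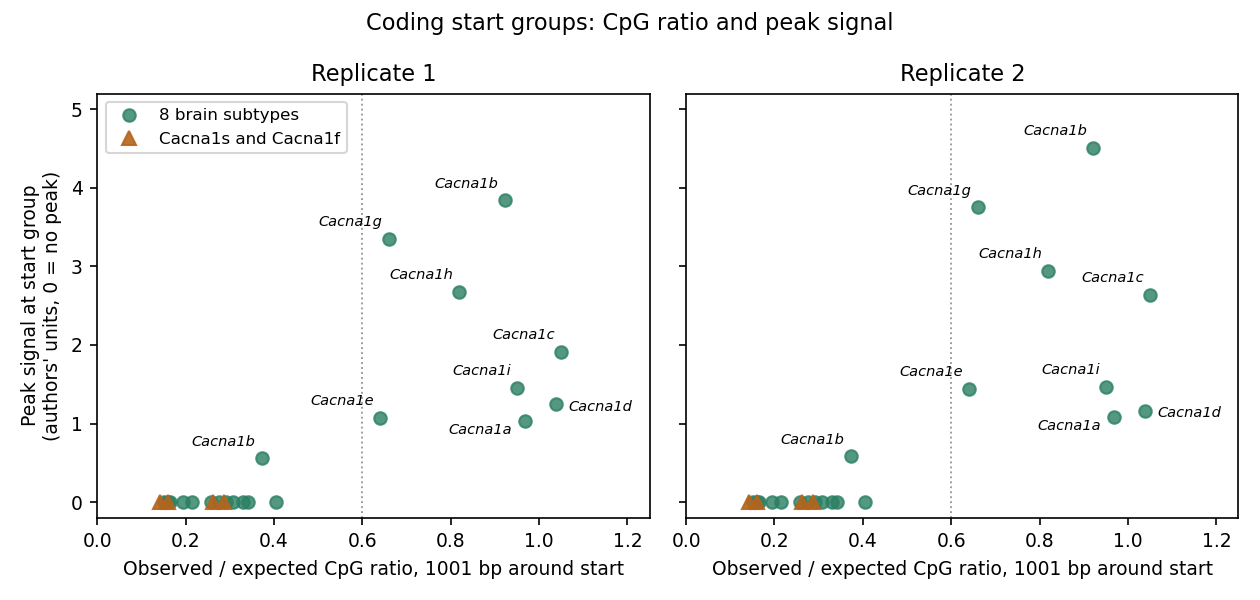
Peak signal (vertical axis, authors' units, 0 where closed) against the CpG ratio (horizontal axis, observed over expected) of each of the 25 coding start groups, 1 panel per replicate, with the dotted line at 0.6. Every group right of the line is open, and of those left of it only 1 group of Cacna1b is.

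The single open group with a low ratio lay near the 3′ end of Cacna1b (24607534, ratio 0.373), with signals of 0.557 and 0.586. It was the start of a transcript model whose 5′ end is incomplete in the annotation, and the peak was not in the shorter peak list of either library. Of the 21 groups, 7 had only models with an incomplete 5′ end. Among the other 14 groups 8 were open in both, against 50.2% of 30623 among all genes, and the 6 closed ones all had a ratio under 0.6.

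The Cav2 genes carry the presynaptic channels of fast transmission. Cacna1b, which encodes the N-type channel Cav2.2 (chr2:24603887-24763152, minus strand), had the highest signal at a coding start, 3.84 in replicate 1 and 4.51 in replicate 2. Its start group at 24763047 to 24763152 covers 5 coding transcripts, and 13 and 8 footprints lay within 500 bp of it. A footprint is a short stretch protected from cutting inside an open site, and each footprint has the same deposited value of 0.01, so footprints cannot be ranked. The part of the peak upstream of the gene is printed because it is the strongest peak at a coding start of the 10 genes, with bases under footprints of both replicates in capitals, 5′ to 3′ on the minus strand of GRCm38.p6.
Cacna1b start peak, chr2:24763153-24763380: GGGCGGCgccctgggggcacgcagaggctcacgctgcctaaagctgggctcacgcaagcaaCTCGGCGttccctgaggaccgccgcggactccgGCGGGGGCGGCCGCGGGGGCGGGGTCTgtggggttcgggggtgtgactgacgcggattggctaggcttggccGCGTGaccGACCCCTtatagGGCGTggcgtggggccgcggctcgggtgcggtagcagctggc
The long capital run held 2 matches to the EGR consensus GCGNGGGCG, at 24763266 to 24763274 and 24763278 to 24763286, both wholly under footprints in both replicates. Such a match was found, on either strand, in the central 200 bp of 8 of the 43 start peaks of replicate 1 in the members' regions (18.6%) and in 6 of 42 of replicate 2 (14.3%), including peaks at neighbouring genes. Of all start peaks 6.42% and 6.85% held one. A match is a description of the letters and was not tested for binding.

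Cacna1a, which encodes the P/Q-type channel Cav2.1 (chr8:84388440-84640246, plus strand), had gene-wide signals of 4.87 and 5.12, the highest of the 10. That peak (chr8:84639321-84639700) lay in a coding exon at the 3′ end of the gene, beside the start of a noncoding transcript, and held an NRF1 match wholly under footprints in both replicates. The coding start group of Cacna1a at 84415364 to 84415784 had signals of only 1.03 and 1.08, and a peak just before it (chr8:84414261-84414820) had 1.46 and 1.88. The most upstream annotated start, of a noncoding transcript 26.9 kb before the coding group, was closed in both. By coding starts and the 500 bp window, Cacna1a therefore ranked last of the 8 in both replicates, not first. This rank rests on the window. The peak just before the coding group lay outside it, with signals above those at the coding starts of Cacna1i, Cacna1d and Cacna1e in both replicates.

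Cacna1e, which encodes the R-type channel Cav2.3 (chr1:154390731-154884501, minus strand), was open at its coding group at 154725920 to 154726356, with signals of 1.07 and 1.44. Its other coding starts, at 154864067 and at 154421155, were closed in both replicates, and their ratios were 0.194 and 0.259 against 0.641 at the open group. A noncoding start group at the 5′ end of the gene had weaker peaks of 0.734 and 0.756. In Cacna1e the open coding start thus lay 158.1 kb inside the annotated gene.

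The Cav1 genes of neurons use the same arrangement. Cacna1c, which encodes the L-type channel Cav1.2 of neurons, heart and smooth muscle, was open at the group at 119107975 to 119108573, which holds 12 coding transcripts, with 1.91 in replicate 1 and 2.64 in replicate 2. The peak with these values was centred 658 and 648 bp from the nearest start. With a 100 bp window the mean signal of both replicates was 1.28. The upstream group at 119196231 to 119196418, which holds 4 coding transcripts, had no peak. Upstream first exons of this gene are known chiefly from heart. The table of cut rates, which lists bases whose local cutting passed a false discovery rate of 0.05, held 1547 and 1548 bases around the open group and 0 around the upstream one. The CpG ratios of the groups were 1.05 and 0.292. The other coding groups of Cacna1c, 3 in all and further inside the gene, were also closed in both replicates, with ratios from 0.214 to 0.331.

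Cacna1d, which encodes Cav1.3, an L-type channel of neurons, sinoatrial cells and hair cells, was open at the group at 30352991 to 30353486 with 1.24 and 1.16. These values came from different peaks. The peak with 1.24 in replicate 1 had 1.00 in replicate 2, and the peak with 1.16 in replicate 2 had 1.08 in replicate 1. Cacna1d was closed at the upstream coding group at 30491156 to 30491455, where 0 bases of the cut-rate table were listed in either replicate. The open groups of Cacna1c and Cacna1d lay 87.8 kb and 138 kb inside their genes. Strong peaks at starts of neighbours lay between the upstream and the open start. The Dcp1b start inside Cacna1c had 3.28 and 2.35, the latter below the 2.64 at the open Cacna1c start in replicate 2. The Dcp1a start inside Cacna1d had 5.91 and 7.71. Cacna1d also had a distal intronic peak there (chr14:30459961-30460120), with 1.95 and 2.37, above the signals of its open start.

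**Figure D3:**
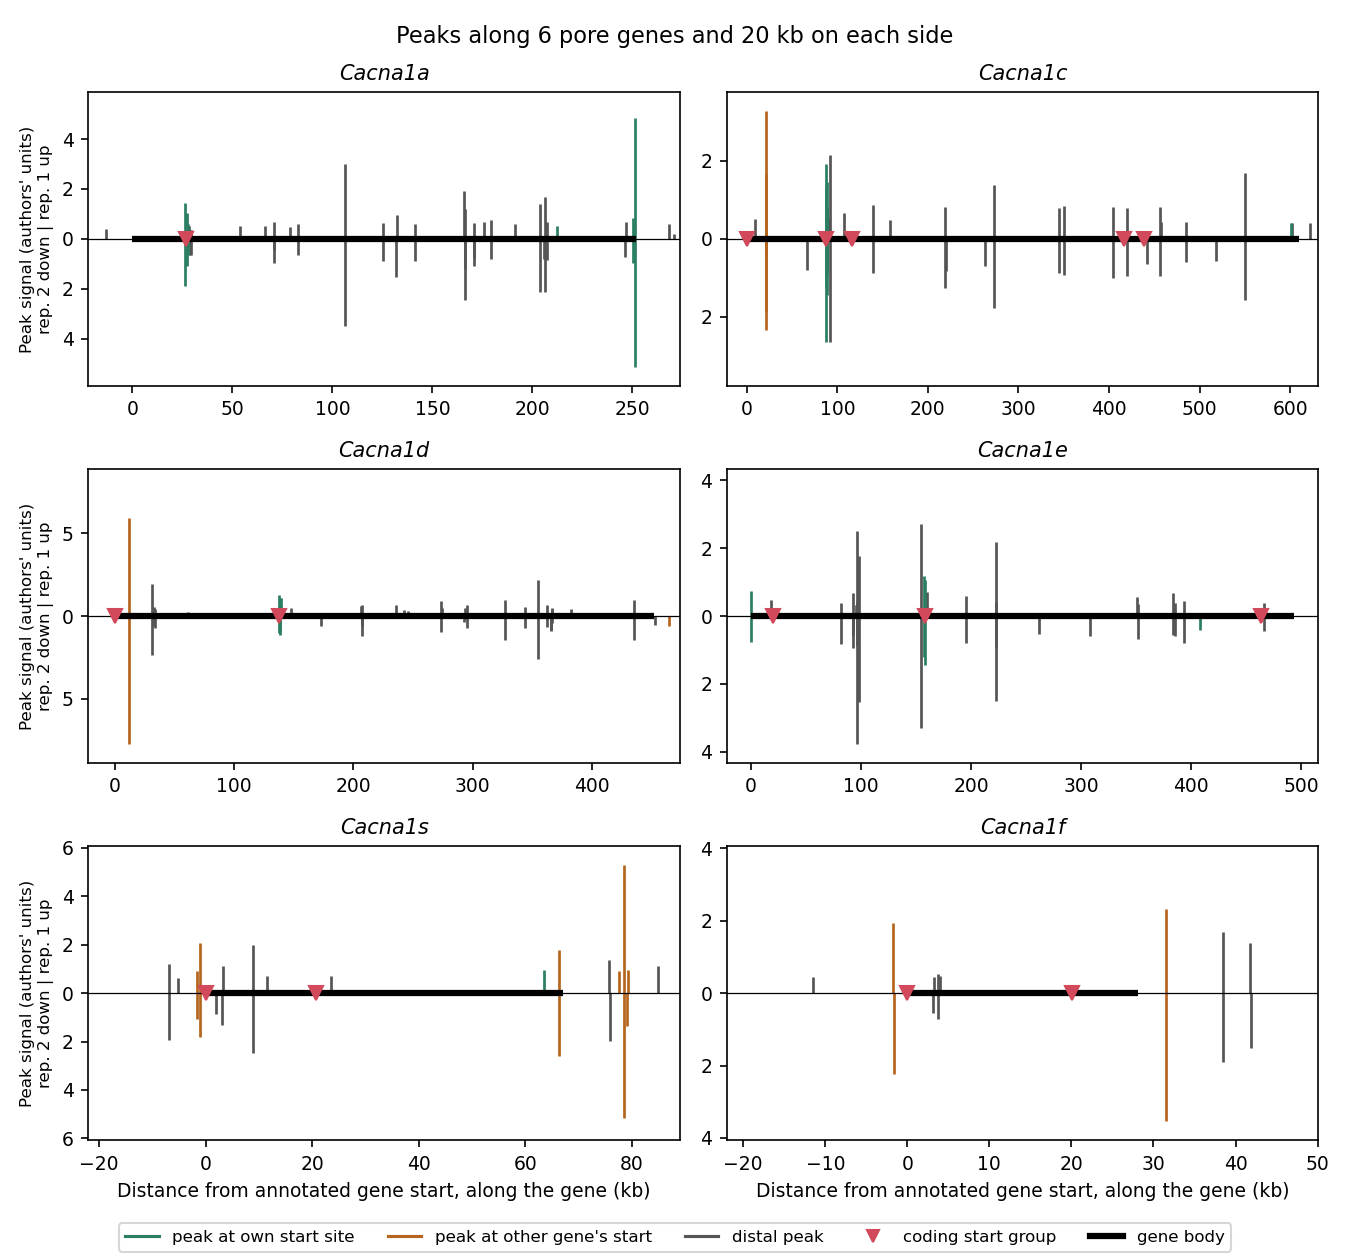
Signal of each peak (authors' units, replicate 1 upward and replicate 2 downward) along 6 pore genes and 20 kb on each side, with distance from the annotated gene start in kb, the gene body as a black bar and coding start groups as triangles. Peaks at a gene's own starts are green, at starts of other genes brown and distal ones grey; the leftmost triangle carries no green peak in Cacna1c, Cacna1d, Cacna1e, Cacna1s and Cacna1f.

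The Cav3 genes were open at the start of the gene itself. Cacna1g, which encodes Cav3.1 (chr11:94408391-94474198, minus strand), had 3.35 and 3.76, and all its 11 coding transcripts start in that 1 group. Cacna1h, which encodes Cav3.2 (chr17:25374285-25433783, minus strand), had 2.68 and 2.94. Cacna1i, which encodes Cav3.3 (chr15:80287238-80398279, plus strand), had 1.45 and 1.47, the closest pair of values among the 8. Its peaks, chr15:80287081-80287220 in replicate 1 and chr15:80287201-80287340 in replicate 2, overlapped only at their ends. Cacna1h and Cacna1i each had 1 more coding start group, and both of these were closed.

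By coding start groups, with the 500 bp window on which the last rank of Cacna1a rests, the 8 were ordered as follows. In replicate 1 the order was Cacna1b, Cacna1g, Cacna1h, Cacna1c, Cacna1i, Cacna1d, Cacna1e and Cacna1a. Replicate 2 gave the same first 5, followed by Cacna1e, Cacna1d and Cacna1a. Cacna1d, Cacna1e and Cacna1a lay between 1.03 and 1.44 over both replicates. The range of Cacna1e overlapped those of Cacna1d and Cacna1a, which did not overlap each other. The first 3 lay between 2.68 and 4.51, above every value of the other 5. The ranks of Cacna1g and Cacna1h also rest on the window. With 100 bp the gene-wide mean of both replicates was 4.175 for Cacna1b, but 1.01 for Cacna1g and 1.02 for Cacna1h. These 100 bp values lay below Cacna1i (1.46), Cacna1c (1.28), Cacna1d (1.12) and Cacna1a (1.05), and above Cacna1e (0.745). With the 500 bp window the median gene-wide signal of the 8 was 2.29 in replicate 1 and 2.79 in replicate 2. Both were below the 3.13 and 3.73 of all open protein-coding genes.

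Cacna1s and Cacna1f had no peak at any of their 9 start groups, coding or not, and 0 bases of the cut-rate table were listed within 500 bp of those starts in either replicate. All 8 brain subtypes had listed bases in both. Of all protein-coding genes 66.9% had listed bases at a start in replicate 1 and 64.1% in replicate 2. Both genes lay in regions with accessible chromatin close by. Cacna1s (chr1:136052750-136119822, plus strand) had a peak beside the Ascl5 start, 1099 bp before its own, with 2.08 and 1.83, and the Kif21b start beyond its end had 5.28 and 5.17. Cacna1f (chrX:7607083-7635196, plus strand) had a peak at the start of Gm36995, a noncoding gene, 1.72 kb before its own start, with 1.93 and 2.24, and the start of Syp, which encodes the synaptic vesicle protein synaptophysin, had 2.34 and 3.53.

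Inside the gene body Cacna1s had peaks that recurred in both replicates. The strongest intronic one (chr1:136061541-136061740), 8.89 kb from the start, had 2.00 and 2.49, and another at chr1:136055808-136056140 had 1.11 and 1.33. A peak in a coding exon near the 3′ end (chr1:136118921-136119140), with the noncoding gene Gm37759 starting 791 bp away, had 1.79 and 2.59. The other 3 body peaks of replicate 1, with 0.688, 0.688 and 0.958, had no counterpart in replicate 2, and 1 of replicate 2 (chr1:136054754-136054817) with 0.846 had none in replicate 1. Cacna1f had weaker body peaks, 0.458 and 0.553 at chrX:7610221-7610340 and 0.536 and 0.711 at chrX:7610645-7610940, plus 1 of 0.479 in replicate 1 alone. The strongest distal peak of each brain subtype had from 1.31 to 3.00 in replicate 1, so the Cacna1s body peak lay inside that range and those of Cacna1f below it.

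Distal peaks, with a centre over 1000 bp from every annotated start, were counted in the gene body and 20 kb on each side and divided by that length. The median of the 8 brain subtypes was 5.88 peaks per 100 kb in replicate 1 and 4.19 in replicate 2, that of Cacna1s and Cacna1f was 8.14 and 5.27, and that of all protein-coding genes was 2.36 and 1.95. Cacna1a had 8.57 and 6.51, with 25 and 19 peaks. Cacna1s had 7.47 and 4.67, and Cacna1f had 8.81 and 5.87, both inside the range of the brain subtypes. Cacna1c was the lowest of the 10 over both replicates together, with 2.77 and 2.46. Unlike the starts, distal density over all peaks of the list did not part the muscle and retinal genes from the brain subtypes. In replicate 1 only Cacna1d, with 9.56, lay above Cacna1f, and its count included the runs of weak peaks described below. With shared peaks alone, as means of both replicates, Cacna1f had 5.87, above the 5.14 of Cacna1a, the highest brain subtype. Cacna1s then had 3.74, inside the range of the brain subtypes. With 100 kb on each side the order of the medians turned, to 4.38 for the brain subtypes and 3.58 for the other 2, as means of both replicates.

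Footprint density gave another picture. Within each replicate Cacna1s, with 44.8 and 24.3 footprints per 100 kb, and Cacna1f, with 38.2 and 30.8, lay above all 8 brain subtypes, which ranged from 10.01 to 31.9 in replicate 1 and from 6.62 to 19.9 in replicate 2. The medians were 18.2 and 12.8 footprints per 100 kb for the brain subtypes, 41.5 and 27.6 for Cacna1s and Cacna1f, and 20.6 and 13.7 for all protein-coding genes. Without the flanks, which hold the Kif21b and Syp starts, the mean over replicates was 14.9 for the brain subtypes and 15.7 for the other 2. Of the 493 and 326 footprints in the members' regions 34.7% and 55.5% recurred in the other library, against 37.3% and 60.3% of all footprints. The footprints lay inside peaks in 89.2% and 92.0% of cases, against 85.5% and 87.8% of all footprints.

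**Figure D4:**
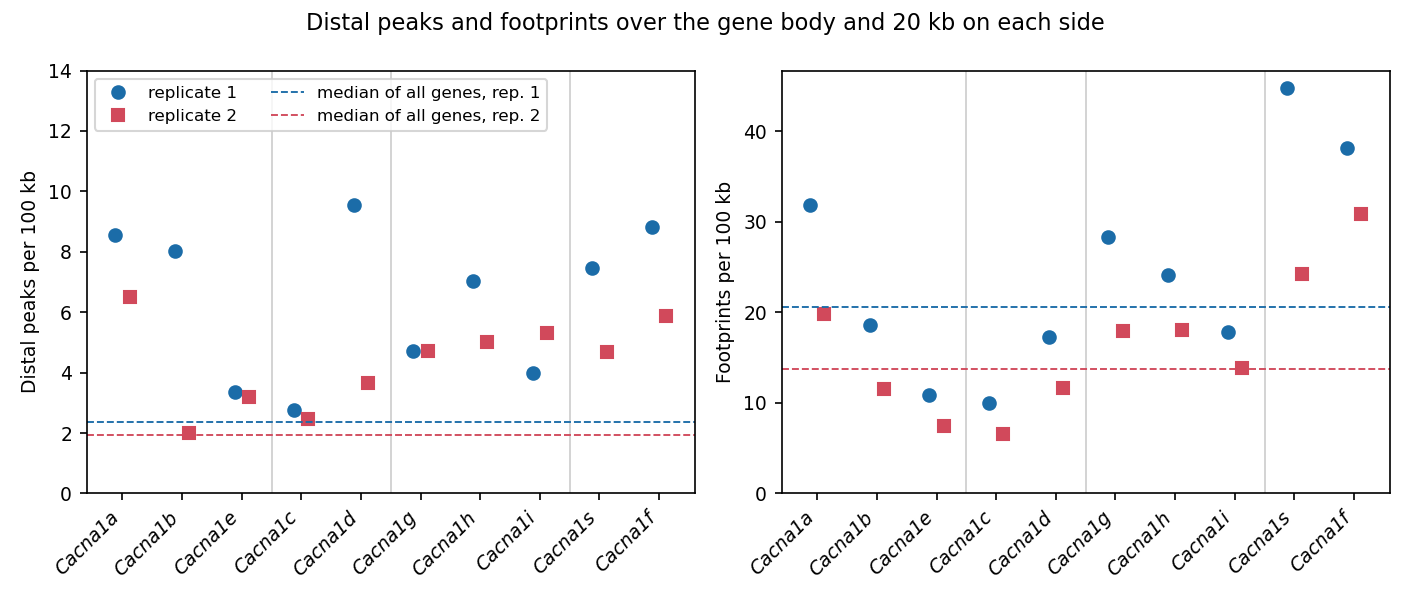
Distal peaks per 100 kb (left) and footprints per 100 kb (right) over the gene body and 20 kb on each side, as 1 point per replicate, with dashed lines at the medians of all protein-coding genes. Cacna1s and Cacna1f lie among the brain subtypes in distal peaks and above them in footprints within each replicate, and Cacna1b and Cacna1d have replicate 1 far above replicate 2.

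Cacna1b and Cacna1d differed most between replicates. Cacna1b had 16 distal peaks in replicate 1 and 4 in replicate 2, and Cacna1d had 47 and 18. In Cacna1b 11 of the 16 formed a run of weak peaks over 5.84 kb (chr2:24687688-24693524), with signals from 0.0781 to 0.24 and no counterpart in replicate 2. In Cacna1d 29 of the 47 lay in 3 such runs, the largest with 17 peaks over 15.9 kb (chr14:30217201-30233144) and a median signal of 0.135. The runs were defined after the values were seen and were built only from distal peaks with no counterpart in the other replicate. Outside them replicate 1 had 5 distal peaks in Cacna1b and 18 in Cacna1d, beside the 4 and 18 of replicate 2. Leaving out only such peaks lowers the replicate 1 counts by construction, so the nearness of these counts does not show agreement. With equal numbers of peaks taken from the 2 libraries, the mean distal density was 2.26 per 100 kb in Cacna1b and 3.76 in Cacna1d. The standard deviations between replicates were then 0.355 and 0.144. With all peaks the means were 5.02 and 6.61, and the standard deviations 4.26 and 4.17. Over all 10 regions 81 of 156 distal peaks of replicate 1 (51.9%) and 82 of 101 of replicate 2 (81.2%) overlapped a peak of the other library, against 59.3% and 79.4% of all distal peaks.

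The strongest distal peak that recurred lay in an intron in 8 of the 10 genes, and beyond the gene in Cacna1g and Cacna1f. The intronic ones of Cacna1a, Cacna1e, Cacna1c, Cacna1h and Cacna1s are printed as examples, chosen after their values were seen. They are given 5′ to 3′ on the strand of the gene in GRCm38.p6, with bases under footprints of both replicates in capitals.
Cacna1a, chr8:84494801-84495000: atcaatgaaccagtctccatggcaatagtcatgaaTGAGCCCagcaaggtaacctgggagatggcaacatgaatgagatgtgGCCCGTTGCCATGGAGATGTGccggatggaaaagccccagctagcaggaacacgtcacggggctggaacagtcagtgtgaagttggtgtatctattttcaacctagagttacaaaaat
Cacna1e, chr1:154788201-154788360: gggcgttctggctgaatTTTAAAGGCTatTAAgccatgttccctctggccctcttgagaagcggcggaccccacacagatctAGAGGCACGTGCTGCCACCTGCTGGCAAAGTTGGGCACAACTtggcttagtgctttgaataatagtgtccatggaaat
Cacna1c, chr6:119104381-119104560: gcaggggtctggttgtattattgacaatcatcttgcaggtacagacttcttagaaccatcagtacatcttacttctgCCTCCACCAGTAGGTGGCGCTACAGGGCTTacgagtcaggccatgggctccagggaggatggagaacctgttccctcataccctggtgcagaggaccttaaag
Cacna1h, chr17:25397921-25398120: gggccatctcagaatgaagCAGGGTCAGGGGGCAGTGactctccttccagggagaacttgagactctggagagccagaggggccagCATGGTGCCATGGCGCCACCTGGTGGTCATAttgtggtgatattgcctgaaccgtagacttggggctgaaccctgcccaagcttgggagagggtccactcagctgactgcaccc
Cacna1s, chr1:136061541-136061740: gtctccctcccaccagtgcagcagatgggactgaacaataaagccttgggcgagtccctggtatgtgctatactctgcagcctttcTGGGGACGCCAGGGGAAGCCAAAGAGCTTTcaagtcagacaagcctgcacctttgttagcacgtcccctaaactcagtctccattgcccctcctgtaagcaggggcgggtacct
The Cacna1a peak had 3.00 and 3.496, and the Cacna1e peak had 2.51 and 3.77, the highest distal signal of the 10 regions in replicate 2. The Cacna1c peak lay 3504 bp from the open coding group, between it and the 3′ end, with 2.14 and 2.64. The Cacna1h peak had 2.40 and 2.93. The longest capital runs of the Cacna1e, Cacna1c and Cacna1h peaks held exact matches to the CTCF consensus, wholly under footprints in both replicates. Those of Cacna1a and Cacna1s held no exact match.

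The second of the shared distal peaks, by the mean of both replicates, was as follows in these genes. In Cacna1a it had 1.91 and 2.44 (chr8:84554381-84554580) and carried a CTCF match under footprints. In Cacna1e it had 2.72 and 3.304 (chr1:154729681-154729860), 3.42 kb from the open coding start. In Cacna1c it had 1.70 and 1.57 (chr6:118646761-118646940). In Cacna1h it had 1.17 and 1.22 (chr17:25406101-25406360). In the Cacna1s region it lay beyond the gene (chr1:136128461-136128698), with 1.36 and 2.00. Each of these peaks recurred in the other replicate at a signal within 1.5 times of the first.

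Among the remaining genes Cacna1d had 2.15 and 2.62 at chr14:30137061-30137260 and 1.95 and 2.37 at chr14:30459961-30460120. Cacna1g had 2.06 and 3.07 in the flank beyond its 3′ end (chr11:94404781-94405000) and 2.04 and 2.37 in an intron 5.22 kb from its start (chr11:94468861-94469100). Cacna1b reached only 1.31 and 1.35 (chr2:24755401-24755580) and 0.995 and 1.297 (chr2:24679341-24679600, in a coding exon), though its start was the strongest of the coding starts. Cacna1i reached 1.33 and 1.87 (chr15:80289501-80289720) and 1.12 and 1.00 (chr15:80358941-80359160, in a coding exon). The 2 strongest of the Cacna1f region (chrX:7645441-7645640 with 1.68 and 1.89, chrX:7648721-7648960 with 1.38 and 1.51) lay in Syp, the neighbouring gene.

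CTCF matches on either strand were found in the central 200 bp of 7 of 156 distal peaks of replicate 1 (4.49%) and 7 of 101 of replicate 2 (6.93%), against 6.84% and 8.13% of all distal peaks. They fell in Cacna1a, Cacna1e, Cacna1c, Cacna1h and Cacna1i. Only exact matches were counted, so sites that depart from the fixed consensus were missed in any of the 10 regions. The E-box CAGATG, bound by proneural factors, was in 18.6% and 18.8% of the members' distal peaks and in 22.4% and 23.2% of all. The GC box GGGCGG, which can overlap the EGR consensus, was in 53.5% and 57.1% of the start peaks and in 41.1% and 43.9% of all. No REST match was found in these windows, and 0.0862% and 0.0964% of all distal peaks held one.

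The auxiliary subunits assemble with the Cav1 and Cav2 pores: alpha2delta subunits aid surface delivery, beta subunits bind the pore from inside the cell, and the gamma family includes the TARPs that accompany AMPA receptors. Open genes numbered 15 of 16 in replicate 1, 13 in replicate 2 and 13 in both, against the 62.8% of all genes given above. All 4 alpha2delta genes were open in both, from Cacna2d1 with 0.99 and 1.07 to Cacna2d2 with 2.02 and 2.39. Of the beta genes Cacnb3 was highest with 2.297 and 3.01, and Cacnb1, the beta subunit of skeletal muscle, had 1.39 in replicate 1 and no peak in replicate 2. Of the gamma family Cacng2, which encodes the TARP stargazin, was highest with 3.72 and 4.20. Cacng1, the gamma subunit of the skeletal muscle channel, was closed in both replicates, and Cacng6 had 0.667 and 0.

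**Figure D5:**
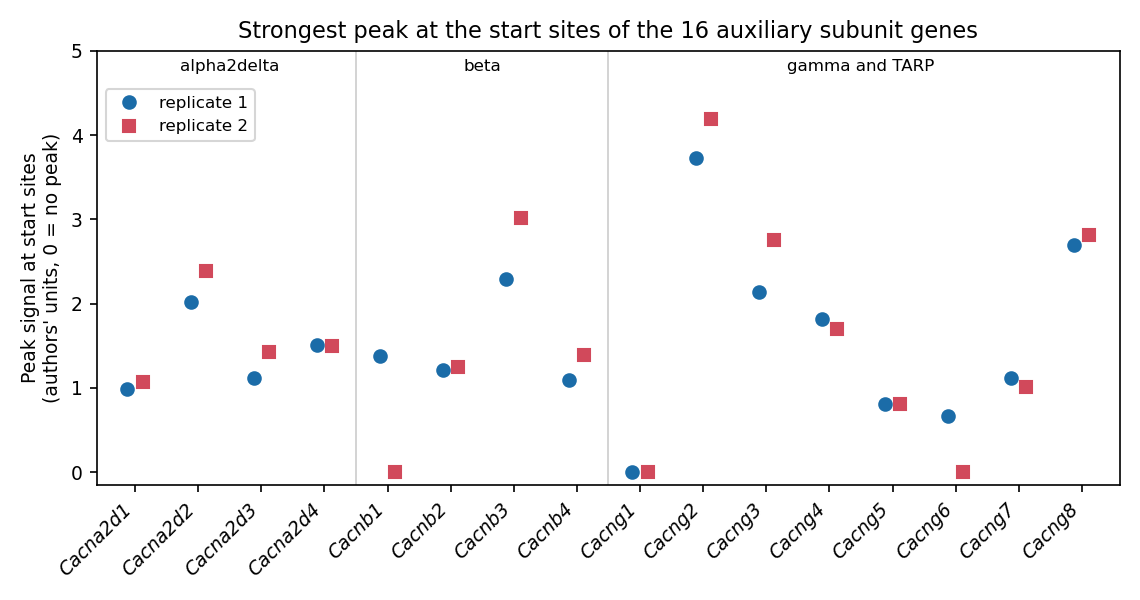
Signal of the strongest peak (authors' units, 0 where no peak was found) at the start sites of the 16 auxiliary subunit genes, as 1 point per replicate. Cacng1 lies at 0 in both replicates, Cacnb1 and Cacng6 in replicate 2, and Cacng2 is the highest in both.

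Partner genes were described by counts, to be read against the 62.8% of all protein-coding genes open in both replicates. The lists also differed in the CpG ratio at the annotated gene start. It was 0.6 or more in 7 of 12 presynaptic release, 1 of 9 triad and 0 of 8 photoreceptor synapse genes. Of all coding start groups with such a ratio 93.1% were open in both, and of the others 20.5%. Whether the ratio accounts for the counts was not tested. All 12 presynaptic release genes were open in both replicates, from Rimbp2 with 1.18 and 1.87 and Rims1 with 1.67 and 1.47 up to Vamp2, the vesicle SNARE, with 4.45 and 5.73 and Unc13a with 4.57 and 4.80. Of the 9 skeletal muscle triad genes 2 were open in both, Ryr1 with 1.06 and 1.60 and Jph1 with 2.31 and 2.71. Stac3, Jph2, Trdn, Casq1, Atp2a1 and Cacng1 were closed in both. Of the 8 photoreceptor synapse genes 2 were open in both, Cacna2d4 with 1.51 and 1.5 and Gnat1 with 1.83 and 1.96. Of 7 related cation pores 4 (57.1%) were open in both, near the share of all genes, the highest being Tpcn1, an endolysosomal channel, with 9.37 and 10.9. Of the sperm channel genes Catsper2 was open with 6.27 and 6.575, and Catsper1, Catsper3 and Catsper4 were closed in both.

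Replicate 1 held 104654 peaks and 293484 footprints, and replicate 2 held 81654 and 187137, of which 199 and 143 peaks and 493 and 326 footprints lay in the regions of the 10 genes. The labelled tissue was checked against markers: of 14 frontal cortex neuron genes, replicate 1 had 14 open and replicate 2 had 13, against 66.1% and 63.3% of all protein-coding genes. Astrocyte markers were open in 5 and 4 of 5 genes and oligodendrocyte lineage markers in 4 and 4 of 5. Of 10 skeletal muscle markers 2 and 1 were open, Ryr1 in both replicates, with Myh1, Myh2, Myh4, Acta1 and Ckm at 0 in both. Of 8 photoreceptor markers 2 and 1 were open, Gnat1 in both replicates, with Crx at 0 in both. Microglia markers were open in 1 of 4 genes and cardiac and smooth muscle markers in 2 of 8, in each replicate. These lists differed in the CpG ratio as well. It was 0.6 or more at the gene start in 5 of the 14 neuron, 1 of 5 astrocyte and 2 of 5 oligodendrocyte lineage genes. In the microglia, photoreceptor and both muscle lists 0 genes had such a ratio. Whether the ratio accounts for the marker counts was not tested. Whether glial chromatin contributed to the signals of the pore genes was not tested.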

How the data were processed

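Per the labels, DNase-seq was done on 2 libraries of frontal cortex, biological replicates 1 and 2 of 1 group. Per the text files deposited with them, peaks, footprints and cut rates were called per library from filtered alignments in mm10 coordinates. No aligner, caller or threshold is named in the sources used here. The longer of the 2 deposited peak lists of each library was used, with the authors' signal, whose scaling is not stated. The deposited cut-rate table holds a p-value type of measure, a false discovery rate of at most 0.05, and the deposited footprint value was 0.01 in all rows.

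Peaks and footprints were set against GENCODE M21 with Python 3.11.15, numpy 2.4.6 and pandas 2.3.3, and sequence came from GRCm38.p6. Peaks overlapping by at least 1 bp were shared. Groups of starts within 500 bp were joined. Consensus sequences of 12 factors were matched exactly on both strands. Interval code was tested on simulated data. No test was made. The members, gene lists and motifs were chosen with earlier results of these data known. All members, the strongest start peak and the 2 strongest shared distal peaks of each are named, with every body peak of Cacna1s and Cacna1f, the highest and lowest of each partner list, and closed ones where 5 or fewer; others were named after their values were seen. Alternatives changed windows, flanks, peak lists and replicates.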

Additional observations from a re-analysis of the deposited data

How the results depend on the processing

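The 8 brain subtypes were open in both replicates with windows of 100, 1000 and 2000 bp, with coding starts alone, with the strongest 50% of peaks, with equal peak numbers and with shared peaks, and 6 were with the shorter list, where Cacna1d and Cacna1e lost their peak in replicate 2. With only the annotated 5′ end of the gene as its start 5 were open, since Cacna1a, Cacna1c and Cacna1d open further inside. Cacna1s and Cacna1f stayed closed except with wider windows, where 1 was open at 1000 bp and 2 at 2000 bp. The auxiliary subunits had from 10 to 15 open genes, with 13 and 15 in the replicates alone. The median distal densities, as means of both replicates, were 5.04 for the brain subtypes and 6.71 for Cacna1s and Cacna1f. They ranged from 4.19 to 5.88 and from 5.27 to 8.14 with 1 replicate left out. They became 2.69 and 3.94 with the shorter list, 2.28 and 4.27 with the strongest 50% of peaks, 2.98 and 4.80 with shared peaks, and 956 and 1246 covered bases per 100 kb. With equal peak numbers they were 4.06 and 6.71. With 100 kb flanks the value for Cacna1s and Cacna1f was 3.58. Footprint densities of 15.5 and 34.5 became 6.57 and 19.4 for shared footprints and 10.2 and 16.8 away from starts, and that of Cacna1s and Cacna1f became 15.7 without flanks. The open coding start groups numbered 9 as reported and from 6 to 9 under the other settings, which were chosen after seeing the data. The cause of these shifts was not tested, and depth could not be set against them since the scaling of the signal is unknown.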
